A study of Gallus gallus with 6 samples.

Results

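The genes described here carry out or schedule DNA replication and S phase. They were chosen by name, as 49 genes of origin recognition and firing, the replicative helicase, the polymerases, the sliding clamp with its loader and partners, nucleotide supply, and the switch from G1 to S phase. Of these, 42 had a probe set that the array annotation assigns to that gene alone, out of 10004 genes tested in the series, and all 42 passed the filter on dim probe sets. CDC6, MCM4, MCM7, GINS2, GINS4, POLD1 and CDK2 had no such probe set and are named only. Of the 42 genes, 21 had several probe sets, and the probe set of highest mean deposited signal stood for the gene.

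The cells were DT40, a chicken B-cell line, measured on 6 one-colour Affymetrix arrays, 2 for each of 3 groups. K11-5 cells are labelled as completely null for histone H1, K11 cells as a knock out of the endogenous H1, and wild type DT40 cells served as the control. All groups, the control included, grew at 39.5 °C with 100 nM of Z-VAD-FMK, a pan-caspase inhibitor that was added because cells without H1 undergo apoptosis. The labels do not state what else separates K11 from K11-5, nor whether each line is 1 clone. They do not call the 2 arrays of a group separate cultures either, so the p-values cover only the array-to-array spread within a group, which may be technical.

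Replication starts where the origin recognition complex marks DNA and, with CDC6 and CDT1, loads the ring of MCM proteins that will unwind it. The kinase CDC7 with its partner DBF4, together with cyclin-dependent kinase, then brings CDC45 and the GINS proteins to the ring. Polymerase alpha and its primase start each strand, polymerases delta and epsilon extend it while held by the clamp PCNA, which the RFC complex loads, and RPA coats the single strands. Ribonucleotide reductase, thymidylate synthase and thymidine kinase supply deoxynucleotides, and E2F factors with cyclin E switch on many of these genes at the end of G1.

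Signals are given after quantile normalization, since the trimmed means of the deposited arrays differed by up to 1.62 times. Statements on which arrays lie above, below or overlap refer to these signals, and some of them change on the deposited scale. The bright linker histone probe set, annotated as HIST1H111L, read 4790 and 4440 in the libraries labelled K11-5, 5810 and 1600 in those labelled K11 and 1640 and 2190 in wild type, so it was not lower in the libraries labelled as lacking H1. Linker histone genes have near-identical copies, and the labels do not state whether the probes lie in deleted sequence; K11-5 and K11 below are the libraries so labelled. Of the 8 B-cell markers with a probe set, 6 were above background on all 6 arrays, and their summed signal was 5140 and 2820 in K11-5, 8160 and 10200 in K11 and 4960 and 5960 in wild type. Single markers differed in direction: CD79B was at 163 and 21.9 in K11-5, 1330 and 1350 in K11 and 1050 and 1530 in wild type, and IGLL1 at 3810 and 2350 in K11-5, 4720 and 5410 in K11 and 1350 and 1220 in wild type. POU2AF1 was at 425 and 2.02 in K11-5, 899 and 1720 in K11 and 1270 and 1540 in wild type, so 1 K11-5 array was below background. EBF1 was at 44.1 and 17.2 in K11-5 and 184 and 207 in wild type. BTK was at 226 and 150 against 548 and 708, and SYK at 253 and 156 against 377 and 473. CD79B, POU2AF1, EBF1, BTK and SYK were thus lower in both K11-5 arrays than in wild type, and IGLL1 was higher. IKZF1 overlapped wild type, and PAX5 was at 11.4 and 29 in K11-5 and 7.72 and 3.76 in wild type. The T-cell genes CD3E, CD4, LCK and ZAP70 and the fibroblast genes DCN and LUM were below background on all arrays. The T-cell genes CD3D and CD8A were above it on all 6, CD8A only at 11.4 to 29.7. The fibroblast genes COL1A1, COL1A2 and COL3A1 were above it on 2, 4 and 4 arrays, at up to 49.8. The summed signal of 6 T-cell markers, nearly all of it from CD3D, was 240 and 419 in K11-5, 1210 and 907 in K11 and 1190 and 1190 in wild type. That of 4 myeloid markers was 939 and 1130 in K11-5, 1360 and 1230 in K11 and 488 and 583 in wild type. Of these, CEBPB was at 452 and 555 in K11-5, 955 and 494 in K11 and 179 and 83.8 in wild type. SPI1 overlapped wild type in both lines, at 447 and 551, 364 and 678, and 283 and 467. CSF1R was at 25.5 to 49.9, and LYZ was below background on all arrays. The erythroid genes HBAD and HBA1 were above background on 3 and 4 arrays, at up to 31.8. The actin 3′ to 5′ ratio, a sign of RNA integrity and labelling, was 6.29 and 5.28 in K11-5, 9.23 and 9.31 in K11 and 8.10 and 7.15 in wild type. GAPDH probes gave lower 3′ to 5′ values on every array, with wild type at 0.892 and 0.917, K11 at 0.832 and 0.819, and K11-5 at 0.914 and 0.798. The K11-5 arrays, lowest for actin, overlapped both other groups for GAPDH. The K11 arrays, highest for actin, lay below wild type for GAPDH, so the 2 controls ordered the groups differently. The part of these markers and ratios in the results that follow was not tested.

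The question of the first comparison was how expression in cells labelled H1 null differs from wild type. In K11-5, the signals of the cyclin CCNE2, the origin subunit ORC1, the clamp loader subunit RFC5, the polymerase epsilon subunit POLE2, the RPA subunit RPA3 and the transcription factor E2F1 fell, and that of RRM2, a subunit of ribonucleotide reductase, rose. The other 35 of the 42 genes did not pass the threshold (limma, Benjamini-Hochberg adjusted p under 0.05 over all 23063 probe sets tested). Over all probe sets tested, 2.92% were called lower and 2.64% higher, 5.57% in either direction; among the 2509 probe sets at least as bright as the members' median signal of 360, 14.0% were called. The 7 calls among 42 genes are near the share among these brighter probe sets, though the members under that median are dimmer than this set. With 1 probe set per gene, 358 of 10004 genes were called higher and 370 lower. The median log2 fold change of the 42 was -0.16, against -0.002 over all probe sets tested, with 27 genes below 0 and 15 above. In 18 genes both K11-5 arrays lay below both wild type arrays and in 8 both lay above, where 26.8% and 26.5% of all probe sets did so. Leaving out wild type replicate 1, wild type replicate 2 or K11-5 replicate 2 lost all 7 calls, at medians of -0.177, -0.047 and -0.09. Fewer of all probe sets were called in these settings too. Without the intensity trend in limma's variance model 0 of the 42 passed, with 7 at an unadjusted p under 0.05 (limma). Of all 23063 probe sets tested, 45 were then called.

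K11 was compared with wild type to ask how the endogenous knock out differs. In K11, POLE2 and RPA3 fell and RFC4, another clamp loader subunit, rose, and 39 genes did not pass the threshold. Of all probe sets tested 4.05% were called lower and 3.80% higher, 7.85% together, and of those at least as bright as the members' median 21.3%. The 3 calls among 42 genes are near the share over all probe sets and under that of the brighter ones. With 1 probe set per gene, 516 of 10004 genes were called higher and 524 lower. The median log2 fold change of the 42 genes was 0.10, against -0.01 over all probe sets, with 25 genes above 0 and 17 below. This direction rests on the scaling. On the deposited scale the median over all probe sets moved to -0.32 in K11 and to -0.12 in K11-5, and to 0.22 for K11-5 against K11; relative to that, the replication genes lay at -0.09 in K11, where the quantile-normalized value was 0.12. The same relative median for K11-5 was -0.18 on the deposited scale and -0.16 on the normalized one. Also on the deposited scale, 0 genes rose and 6 fell in K11 (ORC2, DBF4, POLE2, RPA2, RPA3 and TYMS), with 15 at an unadjusted p under 0.05 (limma). Of all 23063 probe sets tested, 320 were called higher and 2646 lower in K11 on that scale. Without wild type replicate 1 or 2 the calls in K11 were lost, at medians of 0.006 and 0.191. Fewer of all probe sets were called there too.

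K11-5 was also set directly against K11, which tests whether the effects in the lines differ. CCNE2, RFC5 and E2F1 were lower in K11-5 than in K11, and 0 genes passed in the other direction. An unadjusted p under 0.05 in either direction was found for 12 of the 42 (limma), and for 2168 of all 10004 genes. Of all probe sets 1.86% were called lower and 1.16% higher in this comparison, 3.02% together, and of the brighter ones 7.81%. The 3 calls among 42 genes are near the share of the brighter ones, though many members are dimmer than those. With 1 probe set per gene, 163 of 10004 genes were called higher and 246 lower. The median of the 42 genes was -0.23, against 0.03 over all probe sets, and 32 genes were below 0. Both K11-5 arrays lay below both K11 arrays in 17 genes and above them in 2, where 21.8% and 23.9% of all probe sets did so. Relative to the median of all probe sets, the genes lay at -0.25 after quantile normalization, -0.15 on the deposited scale, -0.15 with arrays centred on their medians and -0.17 with arrays scaled to a common trimmed mean. On the deposited scale itself their median was 0.07, above 0. Without K11-5 replicate 2 the 3 calls were lost, at a median of -0.187, and fewer of all probe sets were called too. These are bulk measurements, in which fewer cells in S phase and less of the RNA per cell cannot be told apart. The 3 comparisons share arrays, so their values are given side by side. A moderated F-test over the 3 groups called the 8 genes past the threshold in at least 1 comparison. It called 10.2% of all probe sets and 26.7% of the brighter ones.

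**Figure D1:**
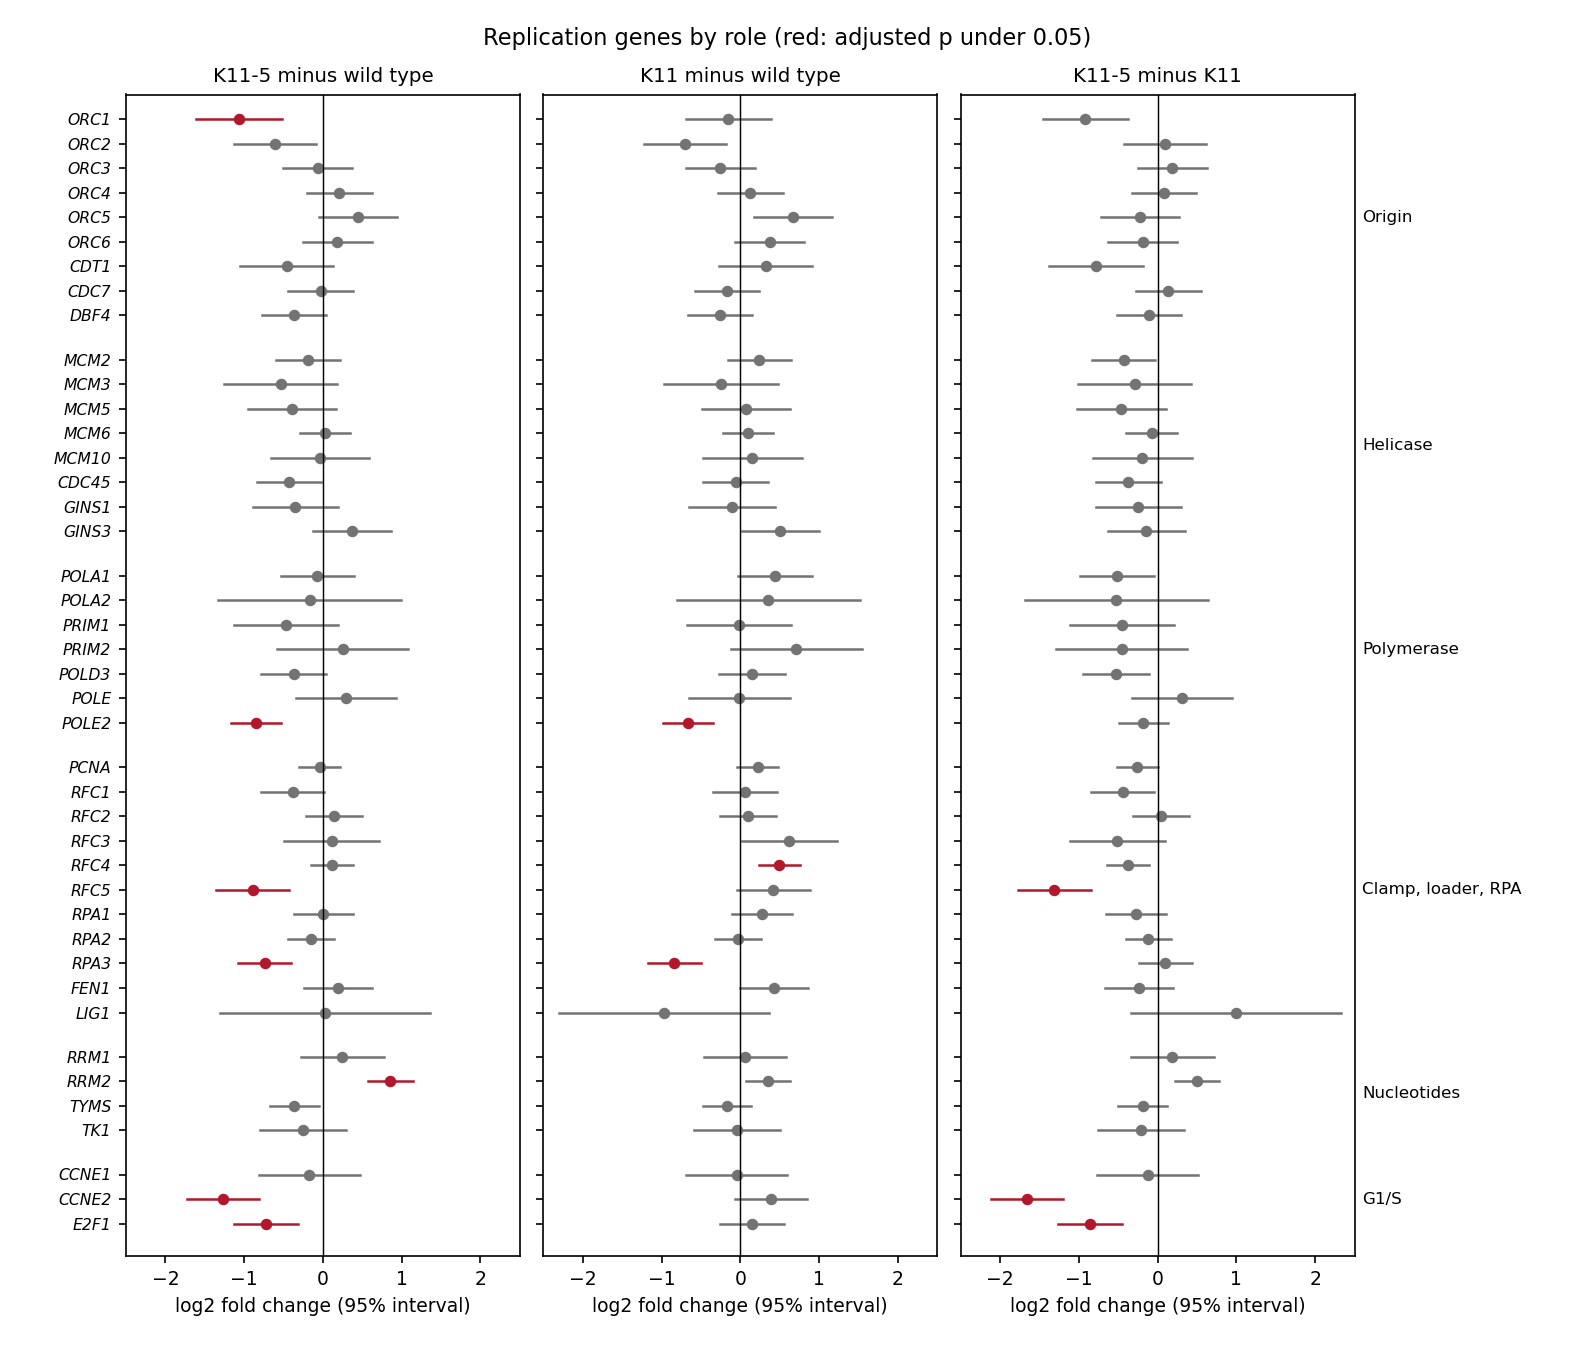
Log2 fold change on the horizontal axis with its 95% interval for the 42 genes, grouped by role, in K11-5 minus wild type, K11 minus wild type and K11-5 minus K11. Red points passed an adjusted p of 0.05 and grey points did not; 7, 3 and 3 genes are red.

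**Figure D2:**
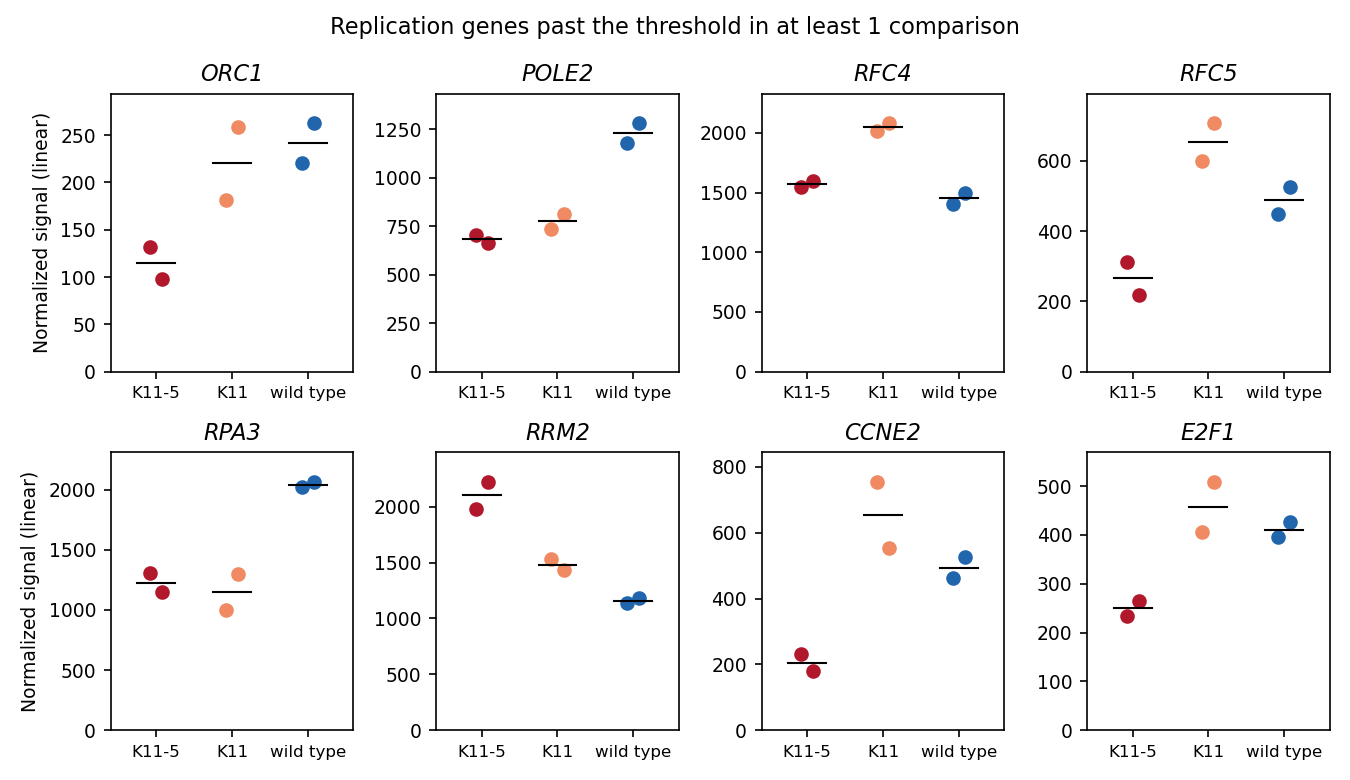
Normalized signal on a linear scale in each of the 6 arrays for the 8 genes past the threshold in at least 1 comparison; points are arrays and lines are the means of 2 arrays. CCNE2, RFC5, ORC1 and E2F1 are lowest in both K11-5 arrays, POLE2 and RPA3 are below wild type in all 4 K11-5 and K11 arrays, and RRM2 is highest in both K11-5 arrays.

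Among the 9 origin genes, 1 fell in K11-5 and 0 passed the threshold in K11 or in K11-5 against K11, where 2 each had an unadjusted p under 0.05 (limma). Of all 10004 genes, 2341 in K11-5, 2683 in K11 and 2168 in K11-5 against K11 had such a p. ORC1, the subunit of the origin recognition complex whose level varies through the cell cycle in mammalian cells, had signals of 132 and 98.4 in K11-5, 181 and 259 in K11 and 220 and 262 in wild type. Both K11-5 arrays were below the other 4, while the K11 and wild type arrays overlapped. Its log2 fold change was -1.07 ± 0.25 in K11-5 against wild type (SE, n = 2 each; limma adjusted p = 0.0327), a fold of 0.478, and -0.15 ± 0.25 in K11 (adjusted p = 0.783). Against K11 it was -0.92 ± 0.25 and did not pass (adjusted p = 0.0788). The call was lost without K11-5 replicate 1 as well as under the settings named above, and its adjusted p reached 0.294.

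ORC2, a core subunit of the same complex, was at 217 and 279 in K11-5, 188 and 284 in K11 and 404 and 353 in wild type. All 4 arrays of the H1 lines lay below both wild type arrays, but neither difference passed, with log2 fold changes of -0.61 (adjusted p = 0.18) and -0.70 (adjusted p = 0.105; n = 2 each, limma). ORC5 went the other way, at 132 and 163 in K11-5, 157 and 185 in K11 and 114.5 and 99.7 in wild type, with adjusted p of 0.318 and 0.105 (limma). ORC3, ORC4 and ORC6, the remaining subunits, had log2 fold changes of -0.06, 0.21 and 0.18 in K11-5 and -0.25, 0.13 and 0.38 in K11. Subunits of 1 complex differed in sign, with 3 of 6 below 0 in each line.

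CDT1, which loads the MCM ring and is destroyed during S phase, was at 179 and 105 in K11-5, 208 and 271 in K11 and 191 and 187 in wild type. Its K11-5 arrays stood far apart, and the log2 fold change of -0.79 ± 0.27 against K11 did not pass (SE, n = 2 each; limma adjusted p = 0.156). A second CDT1 probe set, nearly as bright, gave -0.83 against K11 (adjusted p = 0.0817) and 0.77 for K11 against wild type (adjusted p = 0.0673), where the first gave 0.32. CDC7, the kinase that fires origins, differed by -0.03 and -0.17 from wild type in K11-5 and K11, with 95% intervals of -0.44 to 0.38 and -0.58 to 0.24. Its activating subunit DBF4, whose probe set had the highest signal among the origin genes, was at 427 and 410 in K11-5, 389 and 524 in K11 and 521 and 560 in wild type. The K11-5 arrays lay below wild type with a log2 fold change of -0.37 (adjusted p = 0.314), and K11 overlapped wild type. A second, dimmer DBF4 probe set did not overlap, at 69.4 and 117.1 in K11 and 158.5 and 194.4 in wild type. It gave -0.95 in K11 (limma adjusted p = 0.0654) and -0.58 in K11-5 (adjusted p = 0.282).

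None of the 8 helicase genes passed the threshold in any comparison (limma), with 1 of 8 at an unadjusted p under 0.05 in each. MCM6, a subunit of the ring named for the highest probe set signal of the group, was at 1074 and 1116 in K11-5, 1071 and 1244 in K11 and 1002 and 1153 in wild type. The groups overlapped, and the 95% intervals of the log2 fold change were -0.29 to 0.35 in K11-5 and -0.22 to 0.42 in K11. MCM3, another subunit of the ring, was at 157 and 112 in K11-5, 117 and 227 in K11 and 163 and 229 in wild type, the largest negative difference of the group in K11-5 at -0.54 ± 0.32 (SE, n = 2 each; limma adjusted p = 0.42). MCM2 and MCM5 gave -0.19 and -0.39 in K11-5 and 0.24 and 0.07 in K11. For MCM10, which binds the assembled helicase and was dim at 37.4 to 49.6, the log2 fold changes were -0.04 and 0.15, against 1.00 and -0.47 for a second, dimmer probe set, none past the threshold.

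CDC45, which joins the MCM ring to form the active helicase, read 362 and 365 in K11-5, 551 and 402 in K11 and 491 and 490 in wild type. Both K11-5 arrays were the lowest of the 6, but on the deposited scale they overlapped K11. The log2 fold change of -0.43 against wild type had an unadjusted p of 0.0417 and an adjusted p of 0.236 (limma, n = 2 each). GINS1 and GINS3, subunits of the GINS complex, differed in sign, with -0.35 and 0.37 in K11-5 and -0.10 and 0.51 in K11. GINS3 read 427 and 537 in K11-5, 660 and 424 in K11 and 366 and 376 in wild type, above wild type in all 4 arrays of the H1 lines, and passed the threshold in K11 only without K11 replicate 2. On the deposited scale the GINS3 arrays of both lines overlapped wild type. Against K11, all 8 helicase genes lay below 0 in K11-5, from -0.46 to -0.08, after quantile normalization. On the deposited scale 5 of 8 did, and 7 of 8 lay below the median of all probe sets there.

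Of 7 polymerase genes, POLE2 fell in both lines and the other 6 did not pass in any comparison. POLE2, the second subunit of polymerase epsilon, was at 703 and 663 in K11-5, 736 and 816 in K11 and 1181 and 1281 in wild type. All 4 arrays of the H1 lines were below both wild type arrays, and the K11-5 arrays were below the K11 arrays. On the deposited scale the K11-5 arrays, at 675.3 and 718.5, were above the K11 arrays, at 619.2 and 607.2. Log2 fold changes were -0.85 ± 0.14 in K11-5 (SE, n = 2 each; limma adjusted p = 0.00894) and -0.67 ± 0.14 in K11 (adjusted p = 0.02), folds of 0.556 and 0.63. The lines differed from each other by -0.18, with a 95% interval of -0.50 to 0.13. Both calls were lost without either wild type array, and the adjusted p reached 0.179 and 0.214.

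POLE, the catalytic subunit of the same polymerase, did not pass in either line. It was dim, at 48.6 and 56.3 in K11-5, 35.8 and 48.8 in K11 and 39.5 and 45.1 in wild type, and its log2 fold change in K11-5 was 0.30, with a 95% interval of -0.34 to 0.93. POLD3, an accessory subunit of polymerase delta, was at 163 and 184 in K11-5, 240 and 259 in K11 and 221 and 228 in wild type. Its K11-5 arrays were the lowest of the 6, but on the deposited scale they overlapped K11. Neither -0.37 against wild type (adjusted p = 0.323) nor -0.52 against K11 (adjusted p = 0.176) passed (limma, n = 2 each). The dimmer POLD3 probe sets that were tested gave -0.174, 0.071 and -0.214 against wild type. Against K11 they gave -0.027, -0.099 and -0.365, none past the threshold. POLA1, the catalytic subunit of polymerase alpha, gave -0.07 in K11-5 and 0.44 in K11, while a second, dimmer probe set gave -0.54 and -0.41, so the direction in K11 differs between them. The dim POLA2, PRIM1 and PRIM2, the other subunits of that polymerase and its primase, had signals from 14.4 to 75.7 and SEs of 0.30 to 0.52. At this precision PRIM2 at 0.71 in K11 had a 95% interval of -0.12 to 1.55, and a second, dimmer probe set gave 1.36.

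Among the 11 genes of the clamp, its loader, RPA and Okazaki fragment joining, RFC5 and RPA3 fell in K11-5, RPA3 fell and RFC4 rose in K11, and RFC5 was lower in K11-5 than in K11. PCNA, the sliding clamp, was at 3531 and 3389 in K11-5, 4310 and 3989 in K11 and 3255 and 3874 in wild type. K11-5 overlapped wild type, and its log2 fold change had a 95% interval of -0.30 to 0.22. Both K11 arrays were above the other 4, with 0.22 ± 0.12 against wild type (SE, n = 2 each, limma adjusted p = 0.306). On the deposited scale K11, at 3831 and 3423, overlapped both other groups.

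RFC5, a small subunit of the clamp loader, had signals of 313 and 217 in K11-5, 599 and 707 in K11 and 450 and 526 in wild type. After quantile normalization the 3 groups did not overlap, with K11-5 lowest and K11 highest. On the deposited scale K11-5 was still lowest, but K11, at 512 and 527, lay below wild type, at 561 and 570. The log2 fold change was -0.89 ± 0.21 in K11-5 (SE, n = 2 each; limma adjusted p = 0.0341) and 0.42 ± 0.21 in K11 (adjusted p = 0.274). Against K11 it was -1.31 ± 0.21 in K11-5 (adjusted p = 0.0126), a fold of 0.403, and this call held in 14 of 16 alternatives. Among these is leaving out members of shifted chromosomes, described below, which repeats the main fit for RFC5 and so could not fail. The call was lost with no intensity trend or without K11-5 replicate 2.

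RFC4, a related small subunit, was at 1550 and 1599 in K11-5, 2015 and 2080 in K11 and 1405 and 1497 in wild type. Both K11 arrays were above the other 4, and the log2 fold change in K11 was 0.50 ± 0.12 (SE, n = 2 each; limma adjusted p = 0.0319), a fold of 1.41. The call held in 5 of 16 alternatives, and the sign turned on the deposited scale and with the second, dim probe set at -0.27. In K11-5 it was 0.12 ± 0.12 (adjusted p = 0.656). RFC1, the large subunit, gave -0.38 in K11-5 and 0.06 in K11, and RFC3 gave 0.11 and 0.62, none past the threshold. RFC2 gave 0.14 and 0.10 with its bright probe set. Its dim probe set read 99.8 and 99.5 in K11-5, 152 and 106 in K11 and 46.0 and 53.0 in wild type, and passed in K11 at 1.33 ± 0.26 (adjusted p = 0.0139), so the probe sets of RFC2 disagree.

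RPA3, the small subunit of the complex that coats single-stranded DNA, was at 1303 and 1145 in K11-5, 1002 and 1298 in K11 and 2019 and 2064 in wild type. All 4 arrays of the H1 lines were below both wild type arrays, and the lines overlapped. Its log2 fold change was -0.74 ± 0.15 in K11-5 (SE, n = 2 each; limma adjusted p = 0.0212) and -0.84 ± 0.15 in K11 (adjusted p = 0.0111), folds of 0.599 and 0.559. The lines differed by 0.10, with a 95% interval of -0.24 to 0.44. The K11-5 call held in 9 of 15 alternatives and was also lost without K11-5 replicate 1 and with arrays scaled to a common trimmed mean; the K11 call held in 12 of 15. RPA1 and RPA2, the larger subunits, differed from wild type by 0.003 and -0.15 in K11-5 and by 0.28 and -0.03 in K11. Their 95% intervals in K11-5 were -0.37 to 0.38 and -0.44 to 0.14.

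FEN1, the flap nuclease that trims Okazaki fragments, was at 204 and 215 in K11-5, 229 and 267 in K11 and 173 and 195 in wild type, a rank order without overlap. On the deposited scale K11, at 206.5 and 200.7, lay below wild type, at 213.9 and 207.6. Neither 0.19 in K11-5 (adjusted p = 0.66) nor 0.43 in K11 (adjusted p = 0.23) passed (limma, n = 2 each). LIG1, which seals the fragments, was dim, at 21.5 and 16.9 in K11-5, 18.6 and 3.47 in K11 and 18.0 and 19.6 in wild type. Its K11 replicate 2 was the only value of a replication gene below the background signal of 11.4, and its fold changes have an SE of 0.60.

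Of the 4 genes of nucleotide supply, RRM2 rose in K11-5 and the other 3 did not pass in any comparison. RRM2, the small subunit of ribonucleotide reductase, whose level varies through the cell cycle in mammalian cells, was at 1983 and 2223 in K11-5, 1533 and 1431 in K11 and 1135 and 1182 in wild type. After quantile normalization the groups did not overlap, with K11-5 highest and wild type lowest. On the deposited scale K11-5 was still highest, but K11, at 1216 and 1092, lay below wild type, at 1420 and 1283. RRM2 had a log2 fold change of 0.86 ± 0.13 in K11-5 (SE, n = 2 each; limma adjusted p = 0.0055), a fold of 1.81, and 0.35 ± 0.13 in K11 (adjusted p = 0.128). Between the lines it was 0.50 ± 0.13 (adjusted p = 0.0655), which passed with the arrays on the deposited scale, centred on their medians or scaled to a common trimmed mean. The K11-5 call held in 12 of 16 alternatives, among them, as for RFC5, the one that repeats the main fit. It was lost with no intensity trend and when either wild type array or K11-5 replicate 2 was left out.

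RRM1, the large subunit of the same enzyme, was at 351 and 410 in K11-5, 259 and 428 in K11 and 309 and 331 in wild type. Both K11-5 arrays were above wild type, but 0.25 did not pass (limma adjusted p = 0.633, n = 2 each), and a second probe set gave 0.12. TYMS, thymidylate synthase, read 1542 and 1331 in K11-5, 1526 and 1756 in K11 and 1743 and 1945 in wild type. Its K11-5 arrays were below wild type at -0.36, with an unadjusted p of 0.0259 and an adjusted p of 0.181 (limma). TK1, thymidine kinase, was at 941 and 692 in K11-5, 710 and 1226 in K11 and 1031 and 892 in wild type, and the groups overlapped.

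Of the 3 genes of the G1 to S phase switch, CCNE2 and E2F1 fell in K11-5 and were lower in K11-5 than in K11, and CCNE1 did not pass. CCNE2, cyclin E2, was at 232 and 179 in K11-5, 755 and 555 in K11 and 462 and 526 in wild type. After quantile normalization the groups did not overlap, with K11-5 lowest and K11 highest. On the deposited scale K11-5 was still lowest, but K11, at 633 and 417, overlapped wild type, at 576 and 570. The log2 fold change was -1.27 ± 0.21 in K11-5 (SE, n = 2 each; limma adjusted p = 0.00821), a fold of 0.416, and 0.39 ± 0.21 in K11 (adjusted p = 0.312). Against K11 it was -1.66 ± 0.21 in K11-5 (adjusted p = 0.00463), a fold of 0.317. A second CCNE2 probe set, read on the same arrays and so not an independent measurement, was also lower in K11-5. It gave -0.93 ± 0.20 against wild type (limma adjusted p = 0.0252) and -1.34 ± 0.20 against K11 (adjusted p = 0.0102). The call against K11 held in 14 of 16 alternatives, and was lost without K11-5 replicate 2 or with no intensity trend, with an adjusted p of up to 0.177.

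CCNE1, the related cyclin E1, was at 54.6 and 62.0 in K11-5, 81.4 and 49.9 in K11 and 64.9 and 66.9 in wild type, and its log2 fold change in K11-5 was -0.17, with a 95% interval of -0.82 to 0.47. E2F1, the transcription factor that acts on many replication genes, was at 235 and 264 in K11-5, 406 and 509 in K11 and 396 and 426 in wild type. Both K11-5 arrays were below the other 4, and K11 overlapped wild type. The log2 fold change was -0.72 ± 0.18 in K11-5 (SE, n = 2 each; limma adjusted p = 0.0495), a fold of 0.608, and 0.15 ± 0.18 in K11 (adjusted p = 0.707). Against K11 it was -0.86 ± 0.18 (adjusted p = 0.0381). These E2F1 calls held in 10 and 7 of 16 alternatives, among them, as for RFC5, the one that repeats the main fit. Each was lost when any 1 of the wild type or K11-5 arrays was left out. The call against K11 was also lost without K11 replicate 2, on the deposited scale and with arrays centred on their medians. With only the arrays of the 2 groups in the fit it was lost too.

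The replicates of a group moved the replication genes together in places. In K11, 33 of the 42 genes were higher in replicate 2 than in replicate 1, with a median difference of 0.24, while 49.6% of all probe sets tested were. In wild type 36 of 42 were higher in replicate 2, with a median difference of 0.13, and in K11-5 19 of 42 were, at -0.06. The median absolute difference between replicates over the 42 genes was 0.18 in K11-5, 0.37 in K11 and 0.17 in wild type.

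Whole chromosomes also differed between the lines and wild type, and some replication genes lie on them. By limma on the median of each chromosome's genes, 9 of 29 chromosomes with at least 50 genes shifted in both lines. Chromosome 2 had a log2 median of -0.40 in both lines, chromosome 9 was higher by 0.40 in K11-5 and 0.50 in K11, and chromosome 11 by 0.45 and 0.49 (RefSeq annotation of GRCg7b, used for gene order and chromosome only). The 42 genes included 10 on shifted chromosomes: CCNE2, RPA3, DBF4 and TYMS on chromosome 2, RFC4 on 9, ORC6, CDT1, GINS3 and CCNE1 on 11, and PCNA on 22.

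RFC4 at 0.50 in K11 stood near the median of 0.46 of the other genes of its chromosome there, and in K11-5 it was 0.12 where that median was 0.44. RPA3 was at -0.74 and -0.84 in K11-5 and K11, where the other genes of its chromosome had a median of -0.37 and -0.38 and its 20 nearest tested genes 0.05 and -0.02. CCNE2 was at -1.27 in K11-5, where its 20 nearest genes had a median of -0.55, and at 0.39 in K11, where they had -0.33. TYMS at -0.36 in K11-5 matched its chromosome's median of -0.37 and its neighbours' -0.35. DBF4 was at -0.37 in K11-5, where its chromosome's median was -0.37. ORC6, CDT1, GINS3, CCNE1 and PCNA were at 0.18, -0.46, 0.37, -0.17 and -0.04 in K11-5, where their chromosomes' medians were 0.49. For ORC1, POLE2, RFC5, RRM2 and E2F1, on chromosomes 8, 5, 15, 3 and 20, the other genes of the chromosome had medians between 0.01 and 0.07 in K11-5. Without the 10 genes, the calls in the remaining 32 were 1 higher and 4 lower in K11-5, 0 higher and 1 lower in K11, and 0 higher and 2 lower in K11-5 against K11, with 7, 5 and 8 at an unadjusted p under 0.05 (limma).

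**Figure D3:**
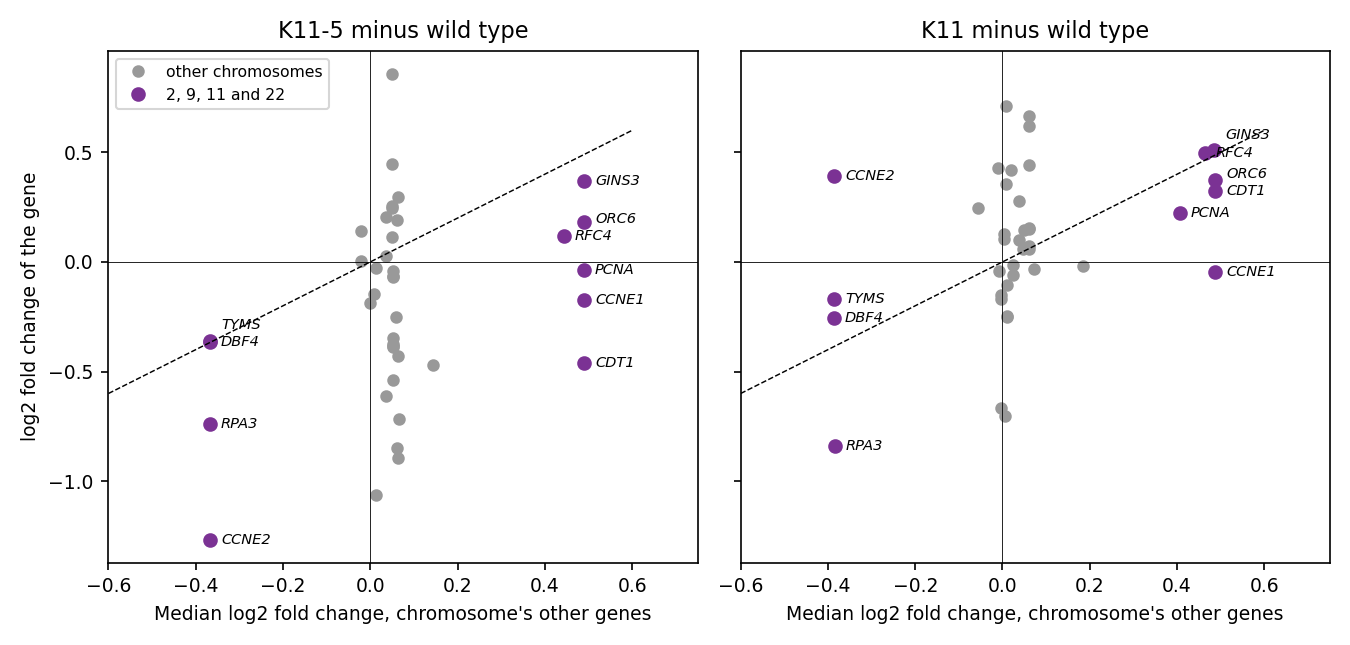
Log2 fold change of each replication gene on the vertical axis against the median log2 fold change of the other tested genes of its chromosome, in K11-5 minus wild type and K11 minus wild type. Purple points are the 10 genes on chromosomes 2, 9, 11 and 22, grey points the other genes, and the dashed line marks equal values; POLA2 and LIG1 are left out because their chromosomes hold too few tested genes. In K11-5 minus wild type, RRM2 is at 0.86 and ORC1 at -1.07 among the grey points, whose chromosomes have medians near 0.

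Other genes of the pathway were counted from lists of replisome, nucleotide, G1 to S phase control and mitosis genes. Their counts stand beside 5.57% of all probe sets called in K11-5 against wild type, 7.85% in K11 and 3.02% between the lines, or 14.0%, 21.3% and 7.81% of the brighter ones. Every call of these lists was lost without the intensity trend, where 45, 28 and 0 of all 23063 probe sets were called. On the deposited scale, 314 of all probe sets were called higher and 824 lower in K11-5. There, 320 and 2646 were in K11, and 788 and 254 in K11-5 against K11. Of 35 other replisome genes tested, 3 rose and 1 fell in K11-5, 3 rose and 4 fell in K11, and 1 was lower in K11-5 than in K11; the median log2 fold changes were -0.11, 0.07 and -0.12. TOP1 and TOP2A, the topoisomerases that relieve torsion and untangle strands, rose in both lines, by 0.98 and 0.73 in K11-5 and by 1.34 and 0.95 in K11. CHTF8, a subunit of an alternative clamp loader, rose by 1.00 in K11-5 and 0.71 in K11. GMNN, geminin, which binds CDT1 and blocks relicensing, read 772 and 774 in K11-5, 903 and 995 in K11 and 1456 and 1597 in wild type. It fell in both lines, with log2 fold changes of -0.98 ± 0.14 (SE, n = 2 each; limma adjusted p = 0.00374) and -0.69 ± 0.14 (adjusted p = 0.0153). DSCC1, TIPIN and RPAIN, partners of the clamp loader, the fork and RPA, fell in K11 at -1.16, -0.92 and -1.04. SLBP, which binds the stem-loop of histone mRNA, was lower in K11-5 than in K11 at -0.97 (limma adjusted p = 0.0322), a call that held in 6 of 15 alternatives and was lost on the deposited scale and when any 1 array other than K11-5 replicate 1 was left out. Without wild type replicate 1 the calls against wild type were lost except for GMNN in K11-5, and without wild type replicate 2 all of them were lost. On the deposited scale the rises in K11-5 and those of TOP2A and CHTF8 in K11 were lost, and 1 gene fell in K11-5 and 6 in K11.

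Of 29 other nucleotide genes tested, 4 rose and 1 fell in K11-5, 4 rose and 5 fell in K11, and 1 was higher and 1 lower in K11-5 against K11, with medians of 0.18, 0.05 and 0.10. PRPS2, which makes the ribose phosphate of nucleotides, was at 663 and 729 in K11-5, 1002 and 583 in K11 and 197 and 140 in wild type. Both lines were above wild type in every array, with log2 fold changes of 2.05 ± 0.26 (SE, n = 2 each; limma adjusted p = 0.00238) and 2.19 ± 0.26 (adjusted p = 0.00155), calls that held in 14 of 15 alternatives each. DTYMK, thymidylate kinase, rose by 0.79 and 1.10 in K11-5 and K11, and ATIC, a purine synthesis enzyme, by 0.59 and 0.63. DHODH, of pyrimidine synthesis, rose in K11-5 at 0.80. TK2, the mitochondrial thymidine kinase, rose in K11 at 1.71 and was lower in K11-5 than in K11 at -0.96, a call that held in 4 of 15 alternatives. DUT, which removes dUTP, fell in both at -0.72 and -0.75, and RRM2B, the p53-inducible reductase subunit, fell in K11 at -1.36. DCTD, dCMP deaminase, was higher in K11-5 than in K11 at 0.85, which held in 8 of 15. On the deposited scale 1 rose and 2 fell in K11-5, 2 rose and 10 fell in K11, and 3 were higher in K11-5 than in K11; without wild type replicate 1 or 2 the falls were lost, and 1 gene rose in K11-5 and 3 in K11.

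Of 29 other G1 to S phase control genes, 2 rose and 2 fell in K11-5, 2 rose and 4 fell in K11, and RBL1 was lower in K11-5 than in K11 at -0.73; the medians were 0.01, 0.17 and -0.10. CDK6, a kinase partner of D-type cyclins, was at 138 and 89.2 in K11-5, 209 and 206 in K11 and 364 and 427 in wild type, below wild type in every array of both lines. Its log2 fold changes were -1.81 ± 0.23 in K11-5 (SE, n = 2 each; limma adjusted p = 0.00266) and -0.92 ± 0.23 in K11 (adjusted p = 0.0405). E2F5, an E2F factor associated with repression, fell by 1.46 and 1.43 on the log2 scale in K11-5 and K11. E2F7, an atypical repressor of the family, rose by 1.36 in K11-5, and CDKN1B, a cyclin-dependent kinase inhibitor, rose by 0.92 and 1.23 in K11-5 and K11. In K11, RBL1, a relative of the retinoblastoma protein, rose by 0.88, while SKP2, a ubiquitin ligase subunit that targets CDKN1B, and CCND1, a D-type cyclin, fell at -1.11 and -0.75. Without wild type replicate 1 the rises were lost, and 2 genes fell in K11-5 and 1 in K11; without wild type replicate 2 the calls in K11-5 were lost, and 1 rose and 1 fell in K11. On the deposited scale 8 fell in K11 and the rises there were lost, and 5 genes were higher and none lower in K11-5 against K11. The RBL1 call against K11 held in 4 of 15 alternatives.

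Of 29 mitosis genes, 0 passed in K11-5 against wild type or K11. An unadjusted p under 0.05 was found for 5 in each (limma), and for 2341 and 2168 of all 10004 genes. In K11 against wild type, 2 mitosis genes fell. These were CCNB1, the mitotic cyclin B1, at -0.52 (limma adjusted p = 0.0444) and PLK1, a mitotic kinase, at -0.66 (adjusted p = 0.0426). The CCNB1 call held in 6 of 15 alternatives and the PLK1 call in 7 of 15. Both were lost with no filter and without any 1 of the arrays other than K11 replicate 2. The CCNB1 call was also lost with the replicate number as a block and with arrays scaled to a common trimmed mean. The PLK1 call was also lost with only the arrays of the 2 groups. CCNB1 lies on chromosome 10, which shifted in both lines and had a log2 median of -0.45 in K11. PLK1 lies on chromosome 14, which did not shift. The mitosis genes had medians of -0.02, 0.16 and -0.13 in K11-5, K11 and between the lines. Of the 13 calls in K11-5 among the lists other than mitosis, 8 lay on shifted chromosomes and all 8 in the direction of the chromosome; in K11, 12 of 22 did, all in its direction. Of the genes tested on these lists 28% lie on shifted chromosomes, and over all genes 44.4% of the called genes in K11-5 and 44.7% in K11 did, where 26% of the tested genes lie. Over all genes, 278 of the 323 called genes on shifted chromosomes in K11-5 also lay in the chromosome's direction. In K11, 417 of 465 did. The part of the chromosomes in these calls was not tested.

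**Figure D4:**
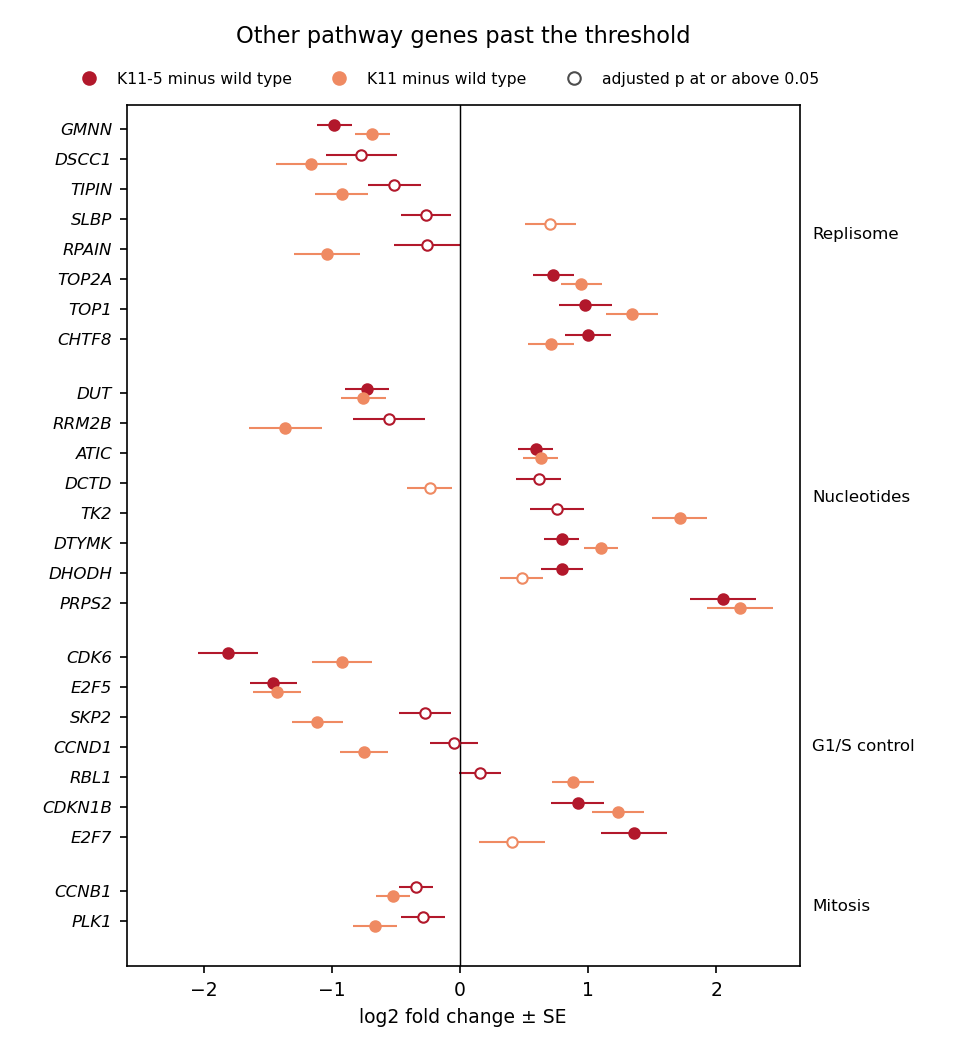
Log2 fold change with its SE for genes of the replisome, nucleotide, G1 to S phase control and mitosis lists, in K11-5 minus wild type (red) and K11 minus wild type (orange); up to 6 genes of smallest p are shown for each list and comparison. Filled points passed an adjusted p of 0.05 and open points did not; PRPS2, TOP1 and CDKN1B are to the right and E2F5, CDK6 and GMNN to the left of 0 in both lines.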

How the data were processed

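Total RNA of growing cells was labelled with a one-cycle kit, per the labels' protocols, and the authors deposited 1 linear signal intensity per probe set and array, made with GCOS per the submitters' processing notes; scaling and build are not stated in the labels. After removal of 96 control probe sets, 38439 were quantile-normalized and transformed as log2(signal + 2). The 23063 probe sets whose mean signal reached the 40th percentile (7.04) were fitted with limma 3.58.1 in R 4.3.3, 1 mean per group over all 6 arrays, with an intensity trend; the fit has 3 residual degrees of freedom. Probe sets were named from GEO's platform annotation: 27168 had 1 symbol, 177 several and 11094 none, and 26853 matched RefSeq's GRCg7b gene table. Background was the 95th percentile of 23 control probe sets (11.4). The members and the lists were chosen with earlier results of these data known. Genes named were those past the threshold, the brightest and the extremes of each role, and up to 6 of smallest p per list and comparison; the others were described by role. The procedure was tested on simulated data, with known changes in K11-5 and independent noise whose spread followed intensity. This could not check the intensity trend, because the simulation took such a trend as given. Over all probe sets tested, replicate differences were hardly correlated between groups (0.061 for wild type and K11, -0.036 for wild type and K11-5, -0.032 for K11 and K11-5). Whether arrays of the same replicate number share a batch was not tested. Alternatives covered scaling, pseudocount, filter, variance model, arrays in the fit, probe set, chromosomes, replicate block and each array left out. The chromosome alternative leaves members of shifted chromosomes out of the counts without refitting, so it repeats the main result for each other member. The number of arrays limits the precision.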

Additional observations from a re-analysis of the deposited data

Results flagged for a closer look

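In 3 genes the effect in K11-5 differed from that in K11 by the direct test of K11-5 against K11 (limma). The log2 effect in K11-5 minus that in K11 was -1.66 for CCNE2, -1.31 for RFC5 and -0.86 for E2F1, with adjusted p of 0.00463, 0.0126 and 0.0381. After quantile normalization, for CCNE2 and RFC5 both K11-5 arrays were below both wild type arrays and both K11 arrays above them. The K11 side rests on the scaling. On the deposited scale both K11 arrays were below wild type for RFC5 and overlapped wild type for CCNE2. The K11-5 arrays were lowest for both genes there too. For E2F1 the normalized K11 arrays overlapped wild type. Its call held in 7 of 16 alternatives, counting the one that repeats the main fit, and was lost on the deposited scale.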

How the results depend on the processing

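With 2 arrays a group, leaving out 1 array leaves a single array in a group, and each call was lost in at least 1 such setting. The sign of each called difference stayed the same in these settings. It could hardly turn, because the arrays of the 2 groups did not overlap in any called difference. Whether 1 array carries a difference was not tested. For K11-5 against wild type, the genes higher numbered 0 to 1 and lower 0 to 6 with each array left out, and the median ranged from -0.177 to -0.047; for K11 against wild type the ranges were 0 to 2, 0 to 3 and 0.006 to 0.217; for K11-5 against K11 they were 0 to 0, 0 to 3 and -0.324 to -0.108; the F-test called 2 to 9. Without K11-5 replicate 1, POLE2, RFC5 and CCNE2 were the 3 lower in K11-5. Without the intensity trend 0 members passed in any comparison or in the F-test (7, 3, 4 and 7 at an unadjusted p under 0.05). The F-test called 8 with it. Of all probe sets, 45, 28 and 0 were called in the 3 comparisons without it. The median for K11-5 against wild type was -0.302 on the deposited scale and -0.301 with arrays centred on their medians, that for K11 -0.406 and -0.342, and that for K11-5 against K11 0.067 and 0.003; with second probe sets that for K11 was 0.002. In K11 against wild type, 0 members were higher and 6 lower on the deposited scale and 0 and 8 with centred arrays; 0 were higher with arrays scaled to a common trimmed mean (an alternative chosen after seeing the data), with no filter and with only the arrays of the 2 groups, with 15, 14, 9, 10 and 7 at an unadjusted p under 0.05 (limma). Without the members of shifted chromosomes 0 were higher and 1 lower in K11, and the F-test called 5; fewer genes were counted there. In K11-5 against K11, 1 gene, RRM2, was higher on the deposited, centred and trimmed-mean scales. The sign turned for RFC4, K11 against wild type, at -0.039 on the deposited scale and -0.273 with its second probe set; for the centred and deposited scales the cause was not tested. Over all probe sets, K11 against wild type had 877 higher and 933 lower, 320 and 2646 on the deposited scale, and 464 and 2990 with centred arrays. K11-5 against wild type had 610 and 674, and 314 and 824 on the deposited scale. K11-5 against K11 had 268 and 429, and 788 and 254 on the deposited scale. With the replicate number as a block, the counts were 1 and 6, 1 and 2, and 0 and 3, and the F-test called 7. Whether arrays of the same replicate number share a batch was not tested.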
